A study of Mus musculus with 23 samples.

Results

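In cultured mouse cortical astrocytes, 58 protein-coding genes were higher after 24 h of T3 (triiodothyronine, the active thyroid hormone) while their mean level after 6 h of T3 lay within a narrow limit around that of the controls. Levels are in CPM, the reads of a gene per 1000000 reads assigned to genes in its library. A gene was taken when its mean was at least 2 CPM in 24h + T3, when log2 of the ratio of mean CPM + 0.5 (T3 over control) was at least 0.5 at 24 h with no overlap of libraries, and when the same value lay between -0.2 and 0.2 at 6 h. Of 38293 genes counted, 12241 protein-coding genes reached 2 CPM, 237 met the 24 h condition and 64 of these lay within the 6 h limits. Left out by symbol were 6 genes (Cox5a, Ucp2, Cox19, Adamts16, Uqcr10 and Col4a4). A further 151 genes that no symbol leaves out met the 24 h condition and lay above the 6 h limit. They are called here, for short, the genes raised at both times, although no lack of overlap was asked of them at 6 h. Because the values at 24 h and at 6 h without CHX chose the 58 genes, they are given as a description, with no test.

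The cells were primary astrocytes from the neocortex of mice at postnatal day 3, of a hybrid background that joins 129/OLa+129/Sv+ with BALB/c+C57BL/6, grown for 7 days and stated to be more than 95% astrocytes. For all 23 libraries the cells had spent 24 h in medium with 0.1% serum stripped of thyroid hormones, so every control was hormone-deprived. Of the 6 groups, 24h + T3 had 3 libraries and 4 libraries stood for each of 24h Control, 6h CHX+ T3, 6h Control CHX, 6h + T3 and 6h Control. T3 was always at 10 nM. CHX, taken here to be cycloheximide, a blocker of protein synthesis, was given at 8 µg/ml for 30 min before T3, and no 24 h culture with CHX was analysed here. No label ties the replicates to separate cultures or animals, and the spread behind each p-value may therefore be technical.

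Thyroid hormone acts through nuclear receptors that sit on DNA with or without hormone and switch from repression to activation when T3 binds. Genes with such a receptor at their own control elements can respond within hours, whereas others change later, after the products of the first genes have been made. In the developing brain astrocytes supply neurons with active T3, and T3 in turn affects their maturation, ion transport and metabolism. The receptor binds DNA through the half-site AGGTCA, usually in pairs.

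Libraries held 13843040 to 22997873 gene counts. By the lane given with each file, lane 5 held every 6 h library without CHX and replicates 1, 2 and 3 of 6h Control CHX. Lane 7 held 24h + T3 replicate 3 alone, and lane 6 the rest. Library 24h + T3 replicate 1 stands apart: alignments that were not unique made up 42.3% of its lines' counts against 37.5% and 37.3% in replicates 2 and 3, and its pair with replicate 3 differed most of all replicate pairs (chi-square 37.1 times its degrees of freedom, lowest pair 1.69). Summed levels of astrocyte markers overlapped at 24 h (14328 to 16889 CPM in controls, 15020 to 15849 CPM with T3), and no defining marker was at 0. Microglia markers summed to 137 to 237 CPM in 24 h controls and 152 to 159 CPM with T3, neuron markers to 582 to 672 CPM and 487 to 629 CPM, and vascular and meningeal markers to 2945 to 3528 CPM and 3196 to 4151 CPM. The vascular and meningeal sum was mostly Acta2 (mean 1799 CPM in 24 h controls, 2369 CPM with T3) and Tagln (805 and 793 CPM), while Col1a1 went from 133 to 76.3 CPM. Of 12 fitted genes of that list, edgeR called 1 higher and 1 lower with T3 at 24 h (median -0.15 log2). Oligodendrocyte lineage markers summed to 843 to 1221 CPM and 896 to 948 CPM, and ependymal and motile cilia markers to 1083 to 1443 CPM and 1161 to 1326 CPM, in 24 h controls and with T3. The part of other cell types in the values of the 58 genes was not tested, and in such bulk RNA more cells of a type and more RNA per cell cannot be told apart.

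Of the 58 genes, 46 had a promoter in the RefSeq table (GRCm38.p6, 250 bases before to 50 after each start, 69 promoters). On either strand the half-site AGGTCA was found in 8 of the 46 (17.4%), beside 18.1% of all 27025 genes in the table and 14.2% of protein-coding genes at 2 CPM or more. These genes were Ankrd35, Calca, Chchd10, Coq10a, Dock9, Fads6, Plcxd1 and Scpep1. The paired forms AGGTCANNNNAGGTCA and TGACCTNNNNNNAGGTCA were in none of the 46, and in 4 and 1 of all genes. The share with GGGCGG, the GC box, was 65.2% (all genes 38.2%, protein-coding genes at 2 CPM or more 70.8%), and that with TATAAA was 8.70% (15.7% and 8.34%), in Npvf, Slc25a21, Taf13 and Tph2. Counted per promoter, the half-site was in 8 of the 69 (11.6%), beside 16.3% of all 32851 promoters. Shown here are 4 stretches of 250 bases upstream of an annotated start, with half-sites in capitals: Tph2, the member with a call under CHX, Chchd10 and Dock9 with 1 half-site each, and Fads6, the member with 2 separate half-sites.
Tph2: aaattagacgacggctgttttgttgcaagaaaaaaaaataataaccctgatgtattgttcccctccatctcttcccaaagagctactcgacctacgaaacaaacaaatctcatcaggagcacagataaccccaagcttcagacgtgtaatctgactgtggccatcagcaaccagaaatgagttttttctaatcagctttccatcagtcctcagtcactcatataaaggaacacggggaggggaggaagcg
Chchd10: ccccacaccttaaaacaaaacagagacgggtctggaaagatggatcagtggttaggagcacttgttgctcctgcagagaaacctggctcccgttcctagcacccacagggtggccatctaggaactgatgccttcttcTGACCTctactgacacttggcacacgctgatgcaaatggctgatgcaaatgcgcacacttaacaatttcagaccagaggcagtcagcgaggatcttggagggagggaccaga
Dock9: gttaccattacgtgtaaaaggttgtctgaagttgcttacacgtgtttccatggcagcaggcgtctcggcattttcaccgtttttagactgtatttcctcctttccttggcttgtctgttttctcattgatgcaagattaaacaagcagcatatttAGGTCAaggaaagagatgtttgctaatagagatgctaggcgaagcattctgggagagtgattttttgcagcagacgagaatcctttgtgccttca
Fads6: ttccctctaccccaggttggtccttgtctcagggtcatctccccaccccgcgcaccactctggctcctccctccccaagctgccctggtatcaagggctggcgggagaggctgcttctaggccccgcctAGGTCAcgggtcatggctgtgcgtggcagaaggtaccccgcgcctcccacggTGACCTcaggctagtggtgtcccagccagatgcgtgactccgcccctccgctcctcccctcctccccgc
The Tph2 stretch is chr10:115185023-115185272 on the minus strand and holds no half-site. That of Chchd10 is chr10:75932880-75933129 on the plus strand, with TGACCT starting 112 bases before the start. Dock9, with several annotated starts, is shown at chr14:121738930-121739179 on the minus strand, with AGGTCA 95 bases before the start. In Fads6, chr11:115297563-115297812 on the minus strand, AGGTCA lies 121 and TGACCT 69 bases before the start. A match describes letters and does not show that a receptor binds there.

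Over the 58 genes the log2 value at 24 h had a median of 0.68 and reached 1.47, and 7 genes were at 1 or more: Rgs6, Flywch2, Tph2, Htra1, Nt5e, Nrtn and Sept4. The lowest values inside the limit were those of Begain, Fads6 and Plcxd1 (0.50 each), and just outside lay Nck2 and Fgfrl1 (0.498 each) and Atf5 (0.488). At 6 h, Npvf (0.197), Gas1 (0.195) and Begain (0.195) lay just inside the upper limit and Scara5 (0.202), Lypd6 (0.208) and Plppr1 (0.208) just over it. At the lower limit Cth (-0.18), Plcxd1 (-0.13) and Smpdl3b (-0.10) were inside, and Mcrip2 (-0.22), Pet100 (-0.24) and Pla2g5 (-0.24) outside. The 6 h values were not centred on 0: 41 of the 58 were above it and 17 below. In Npvf all 6h + T3 libraries were above all 6h Control libraries, so absence of a response at 6 h holds for Npvf only as the stated limit. On the same libraries edgeR, which was fitted to 16087 genes, called 53 of the 58 higher at 24 h, where 4.41% of all genes were called higher and 2.68% lower, and where 6.95% had all T3 libraries above all controls. At 6 h it called 0 of the 58 in either direction (4 higher and 0 lower at an unadjusted p under 0.05), beside 2.61% of all genes higher and 1.16% lower. These counts follow from the choice of genes and support nothing.

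**Figure D1:**
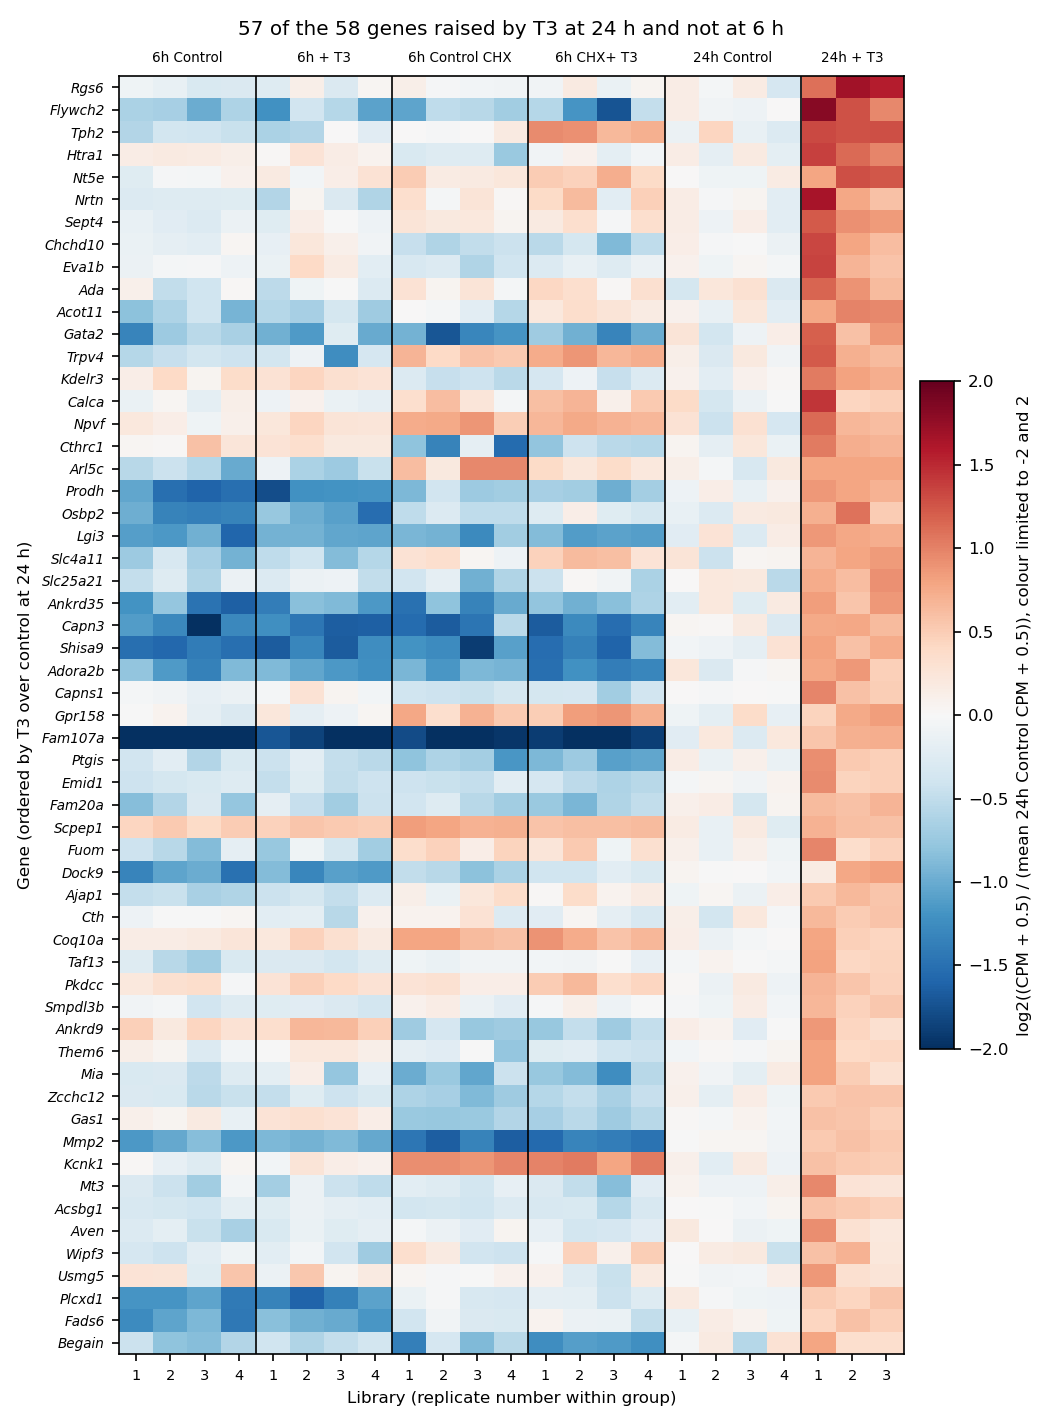
Heat map of 57 of the 58 genes (rows, ordered by their log2 value at 24 h) in all 23 libraries (columns, by group and replicate number). Colour is log2 of CPM + 0.5 over the mean 24h Control CPM + 0.5, limited to -2 and 2. The 3 columns of 24h + T3 are red for the genes by the way they were chosen, while the 6 h columns range from deep blue (Fam107a, Shisa9) to red under CHX (Kcnk1, Gpr158).

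The genes span a wide range of levels. Per kb of exon, which allows genes to be compared, mean levels in 24h + T3 ran from 0.343 (Wipf3) to 1890 CPM per kb (Mt3), with a median of 4.70. By CPM, 21 of the 58 were under 10 and 10 over 100. Their exons were shorter (median 3102 bases against 4755 in the 11934 protein-coding genes at 2 CPM or more that no symbol leaves out) and richer in GC (54.1% against 49.7%). The 39 genes in which library 24h + T3 replicate 1 was the highest had a median of 2712 bases, and the other 19 had 4998 bases, so the short exons lay with the former. Exons of 17 of the 58 (29.3%, against 31.5%) overlap a gene on the other strand, among them Rgs6, Acot11, Chchd10, Kdelr3, Aven and Usmg5. Since the kit marks no strand, reads from the shared stretches cannot be told apart by strand. A line of ambiguous reads, kept out of the gene counts, may have taken such reads. No 2 of the 58 genes lay within 1000000 bases of each other.

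Signalling genes, grouped by hand after the members were known, numbered 8. Rgs6, a regulator that shuts off G protein signalling (ENSMUSG00000021219, chromosome 12, 82588292 to 83162056 on the plus strand of GRCm38), measured 8.10, 7.06, 8.19 and 5.66 CPM in the 24 h controls and 16.1, 24.2 and 22.5 CPM with T3. The groups were far apart, with means of 7.25 ± 1.18 (SD, n = 4) and 20.96 ± 4.27 CPM (SD, n = 3), although replicate 1 was the lowest with T3. At 6 h Rgs6 ran from 5.78 to 6.81 CPM in controls, from 5.85 to 7.94 with T3, from 6.88 to 7.89 with CHX and from 6.58 to 8.32 with both, so all 16 libraries lay below every 24h + T3 library. Its T3 effect under CHX was 0.05 ± 0.13 log2 (SE), with an adjusted p of 0.903 in edgeR.

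Tph2 encodes the tryptophan hydroxylase that limits serotonin synthesis in neurons of the brain (ENSMUSG00000006764, chromosome 10, 115078641 to 115185022, minus strand). Levels were low: 0.849, 1.47, 0.814 and 0.715 CPM in 24 h controls and 3.15, 3.03 and 3.09 CPM with T3, from 12 to 26 and from 50 to 71 reads per library. The 3 libraries with T3 stood close together and clear of the controls. At 6 h without CHX it measured 0.478, 0.638, 0.612 and 0.578 CPM in controls and 0.439, 0.473, 0.965 and 0.755 CPM with T3, which overlapped. With CHX it measured 0.967, 0.942, 0.971 and 1.16 CPM, and with CHX and T3 2.32, 2.26, 1.80 and 1.89 CPM, 17 to 21 and 34 to 38 reads. Here the groups were apart again, and edgeR called Tph2 higher with T3 under CHX, by 1.05 ± 0.21 log2 (SE, adjusted p = 0.00709). With lane as a term the fitted difference was 0.85 log2 and the call was lost, but that fit rests on the only CHX control on lane 6. On lane 6 alone, the single CHX library at 1.16 CPM lay below all 4 libraries with CHX and T3.

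Among them, 3 act on adenosine, a signal that astrocytes make from released ATP. Nt5e encodes CD73, the surface enzyme that forms adenosine from AMP (ENSMUSG00000032420, chromosome 9, 88327197 to 88372092, plus strand), and measured 6.66, 6.21, 6.24 and 7.51 CPM in 24 h controls against 11.8, 16.9 and 16.4 CPM with T3. Ada, the deaminase that turns adenosine into inosine, measured 3.13, 4.91, 5.21 and 3.28 CPM against 9.83, 8.15 and 6.65 CPM. Adora2b, the A2B adenosine receptor, measured 1.83, 1.13, 1.46 and 1.55 CPM against 2.90, 3.13 and 2.26 CPM. So an enzyme that forms adenosine, one that removes it and a receptor for it were all higher at 24 h. Under CHX at 6 h they differed in sign: Nt5e was at 0.29 ± 0.12 log2 (adjusted p = 0.313), Ada at 0.16 ± 0.18 (0.719) and Adora2b at -0.82 ± 0.33 (0.342), none of them called by edgeR. Adora2b had 3 to 6 reads per library with CHX and T3 and 7 to 11 with CHX alone, and its libraries did not overlap.

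Other adenosine genes, picked after the members had been seen, showed no common direction at 24 h. Adk, which phosphorylates adenosine to AMP, had means of 77.2 ± 1.10 CPM (SD, n = 4) in controls and 101 ± 7.00 CPM (SD, n = 3) with T3, with no overlap. The more abundant receptor gene Adora1 went the other way, with 96.4 ± 3.26 CPM (SD, n = 4) in controls and 77.4 ± 8.07 CPM (SD, n = 3) with T3, also with no overlap. Log2 values were -0.37 for Entpd2 and -0.21 for Entpd1, ectoenzymes that degrade ATP, and -0.36 for Enpp1. They were 0.12 and 0.27 for the nucleoside transporter genes Slc29a1 and Slc29a2. Of these, Enpp1 and Slc29a2 had no overlap of libraries. The remaining signalling members were Gpr158, an orphan receptor (0.69 log2 at 24 h), Shisa9, an auxiliary protein of AMPA receptors (0.72), and Gas1, a Hedgehog co-receptor (0.54).

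**Figure D2:**
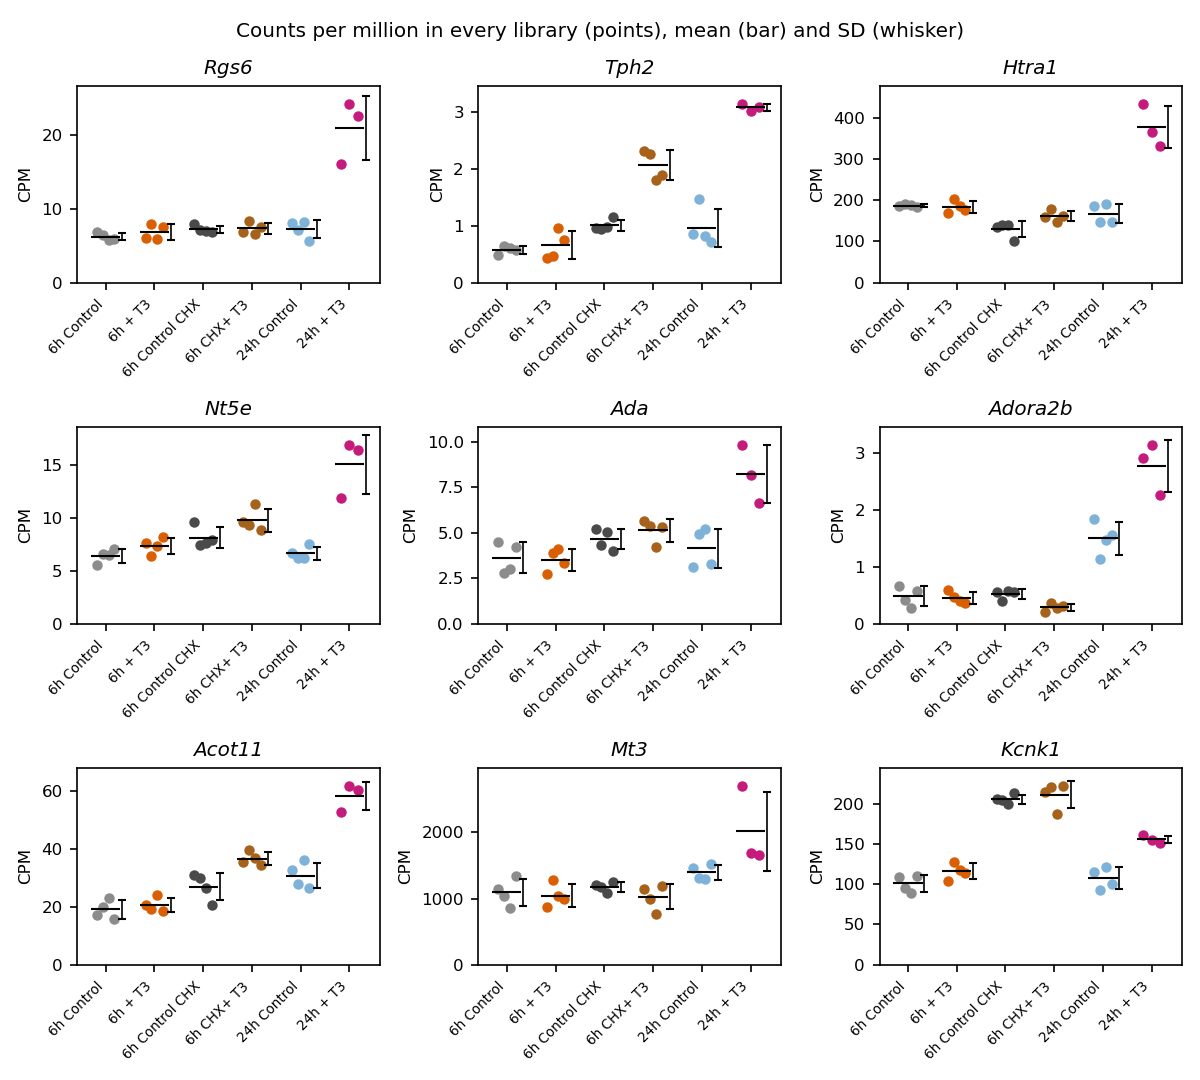
CPM of 9 of the genes in every library (points, left to right by replicate number), with the group mean (bar) and SD (whisker), for the 6 groups on the horizontal axis. In Tph2 the 4 libraries with CHX and T3 (1.80 to 2.32 CPM) lie above the 4 with CHX (0.942 to 1.16 CPM), and in Mt3 library 24h + T3 replicate 1 (2705 CPM) lies far above replicates 2 and 3 (1685 and 1656 CPM).

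Secreted proteins, peptide precursors and kinases of the secretory pathway made up 11 genes, with log2 values of 0.54 to 1.17 at 24 h. Htra1, a secreted serine protease (ENSMUSG00000006205, chromosome 7, 130936111 to 130985660, plus strand), measured 185, 147, 190.5 and 147 CPM in 24 h controls and 433, 366 and 331 CPM with T3, or 167 ± 23.6 (SD, n = 4) and 377 ± 51.8 CPM (SD, n = 3). At 6 h it was level without CHX, at 186 ± 3.27 and 183 ± 14.1 CPM (SD, n = 4 each). Under CHX it measured 135, 140.0, 140.2 and 99.95 CPM without and 159.9, 177, 146 and 161 CPM with T3, groups that did not overlap. The fitted difference was 0.35 ± 0.10 log2 (SE) and was not called by edgeR (adjusted p = 0.116). With lane as a term it was 0.71 log2, a value that rests on the only CHX control on lane 6. Replicate 4 of the CHX controls, the lowest, is also the only one of them on lane 6, and the fitted difference was 0.25 without it.

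Nrtn, neurturin, a ligand of the GDNF family, measured 15.7, 14.01, 14.8 and 12.2 CPM in 24 h controls and 45.7, 24.7 and 21.5 CPM with T3. Replicate 1 of 24h + T3 held nearly as much as the other T3 libraries together, and its SD (13.1 CPM, n = 3) reflects this. Calca, the precursor of calcitonin and CGRP, showed the same, with 6.99, 3.24 and 3.39 CPM with T3 and 3.13 CPM in the highest control. Npvf, the precursor of RFamide peptides, measured 36.2, 21.8, 36.6 and 23.3 CPM against 65.3, 46.9 and 45.6 CPM. Mmp2, a gelatinase that cuts matrix proteins, had narrow groups of 86.2, 88.8, 89.0 and 82.0 CPM and 124, 130.4 and 124 CPM. Cthrc1 (0.82 log2), Lgi3 (0.79), Emid1 (0.64), Fam20a (0.63), Pkdcc (0.57) and Mia (0.55) completed the group. Replicate 1 was the highest 24h + T3 library in 9 of these 11 genes.

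Lipid genes numbered 8. Acot11, a thioesterase that releases fatty acids from CoA (ENSMUSG00000034853, chromosome 4, 106744555 to 106804998, minus strand), measured 32.7, 27.8, 36.1 and 26.7 CPM in 24 h controls and 52.9, 61.9 and 60.4 CPM with T3. Under CHX at 6 h it measured 30.9, 30.0, 26.5 and 20.6 CPM without T3 and 35.7, 39.6, 36.9 and 34.4 CPM with it. The latter did not overlap, and the difference of 0.47 ± 0.12 log2 (SE) just missed the edgeR threshold (adjusted p = 0.0568). With lane as a term it was 0.85 log2, which rests on the only CHX control on lane 6, the lowest of them at 20.6 CPM. Over its other alternatives, in edgeR or DESeq2, the adjusted p ran from 0.00453 to 0.269. Acsbg1, a long-chain acyl-CoA synthetase typical of astrocytes, measured 375, 374, 362 and 388 CPM at 24 h in controls and 556, 539.9 and 518 CPM with T3, and -0.01 ± 0.05 log2 (adjusted p = 0.974) under CHX. Osbp2, an oxysterol-binding protein gene (0.79 log2 at 24 h), Ptgis, prostacyclin synthase (0.66), Smpdl3b (0.56), Them6 (0.55), Plcxd1 (0.50) and the desaturase-like Fads6 (0.50) were the others.

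Genes of mitochondria, amino acids and metal binding numbered 6, and in all 6 replicate 1 was the highest 24h + T3 library. Chchd10, a protein of the mitochondrial intermembrane space, measured 71.4, 64.1, 64.3 and 59.7 CPM in 24 h controls and 164, 113 and 99.5 CPM with T3. Mt3, the brain metallothionein that binds zinc and copper, measured 1464, 1304, 1296 and 1519 CPM against 2705, 1685 and 1656 CPM, so that the groups were apart but replicates 2 and 3 exceeded the highest control by little. Prodh, which starts proline oxidation, measured 14.7 ± 1.49 CPM (SD, n = 4) in controls and 25.8 ± 1.62 CPM (SD, n = 3) with T3. Cth, which makes cysteine (0.57 log2), Coq10a, a coenzyme Q-binding protein gene (0.57), and Usmg5, a small protein bound to ATP synthase (0.51), were nearer the limit. Under CHX the effect of T3 was between -0.21 and 0.04 log2 in the 6 genes.

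Ion and solute transport had 5 genes, of which 4 are described. Kcnk1, a potassium channel of the tandem-pore family, measured 116, 92.8, 122 and 100.3 CPM against 161, 155 and 152 CPM at 24 h. Trpv4, a calcium-permeable channel that senses swelling and warmth, measured 1.37, 0.904, 1.46 and 1.13 CPM against 3.53, 2.30 and 2.17 CPM. The others were Slc4a11, a membrane transporter gene (0.78 log2), and Slc25a21, a mitochondrial carrier gene (0.76).

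Cytoskeleton, trafficking, calpains and cell contacts had 9 genes and nuclear proteins 3. Sept4, a septin that forms filaments, measured 45.8, 38.1, 44.9 and 35.6 CPM in 24 h controls and 96.3, 77.9 and 74.7 CPM with T3. Kdelr3, a receptor that returns proteins to the endoplasmic reticulum, measured 27.9, 22.5, 28.0 and 26.7 CPM against 54.4, 46.3 and 43.8 CPM. Capns1, the small subunit of the calpain proteases, measured 474, 464, 475 and 467 CPM against 923, 706 and 662 CPM, and Capn3, a calpain itself, 0.72 log2 at 24 h. Dock9, an activator of the GTPase Cdc42, went against the trend for replicate 1, with 40.1, 61.2 and 63.6 CPM with T3 and 37.1 CPM in the highest control. Gata2, a zinc finger transcription factor, measured 3.85, 2.32, 2.88 and 3.45 CPM against 7.81, 4.96 and 6.13 CPM. Taf13, a subunit of the general factor TFIID (0.57 log2), and Zcchc12 (0.55) were the other nuclear members. Of the genes with no clear group, Flywch2 stood at 4.05, 3.39, 3.31 and 3.63 CPM against 13.9, 9.35 and 7.48 CPM, and Eva1b at 11.9, 10.6, 11.5 and 10.9 CPM against 29.5, 18.3 and 16.9 CPM.

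Library 24h + T3 replicate 1 lifted many of these values. It was the highest of the 3 in 39 of the 58 genes, replicate 2 in 11 and replicate 3 in 8, while replicate 1 was the highest in 41.4% of protein-coding genes at 2 CPM or more. It exceeded the mean of the other libraries by more than 25% in 24 of the 58 (16.1% of those protein-coding genes) and was the lowest of the 3 in 10. With replicates 2 and 3 alone, 43 of the 58 genes still reached 0.5 log2, the median was 0.63 and the lowest value 0.26. The 15 that did not were Calca, Emid1, Fuom, Coq10a, Taf13, Ankrd9, Them6, Mia, Mt3, Acsbg1, Aven, Wipf3, Usmg5, Plcxd1 and Begain. Why replicate 1 differs was not tested.

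**Figure D3:**
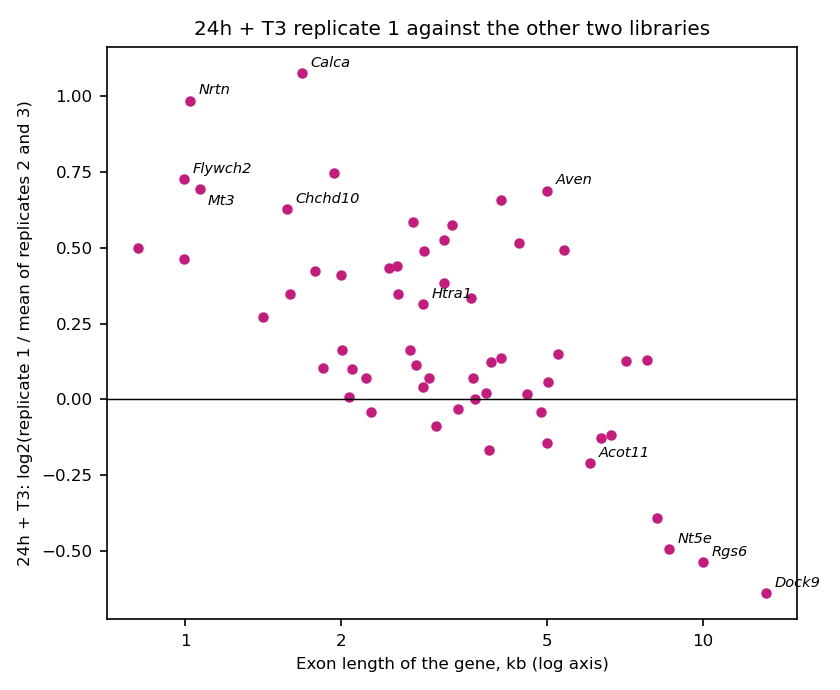
Each point is 1 of the 58 genes. The horizontal axis is exon length in kb (log axis) and the vertical axis log2 of the CPM in 24h + T3 replicate 1 over the mean of replicates 2 and 3. Short genes such as Nrtn, Calca and Mt3 lie above 0, and the long genes Rgs6, Nt5e and Dock9 below it. The median over the 58 genes is 0.14.

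The comparison of 6h CHX+ T3 with 6h Control CHX asks whether T3 changes these genes when new protein synthesis is blocked. Its groups share no library with the choice of genes, but the spread behind its calls came from all 23 libraries. Without 24h + T3 replicate 1, 4 members were called higher instead of 1, and 343 of all genes instead of 187. Tph2 was the only member called by edgeR: 1 of 58 higher (1.72%) and 0 lower, beside 1.16% of all genes called higher and 0.131% lower. DESeq2 called 3 members higher and 0 lower, beside 286 and 45 of all genes. Of the 151 genes raised at both times, edgeR called 56 (37.1%) higher and 1 lower. At 6 h without CHX, on the libraries that chose them, it called 105 of the 151 (69.5%) higher. Fitted T3 effects under CHX over the 58 genes had a median of 0.05 log2 (all genes -0.01), with extremes at Adora2b and Tph2. They were above 0 in 35 and below 0 in 23, beside 48.3% of all genes above 0. Standard errors had a median of 0.15 log2, and Acot11 at 0.47 ± 0.12 was not called, so changes near the 24 h limit of 0.5 may have gone uncalled in many of these genes.

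Libraries did not overlap in 9 of the 58 genes. Higher in all 4 libraries with T3 were 7 (12.1%, against 5.53% of all genes), among them Tph2, Htra1, Eva1b, Acot11, Dock9 and Pkdcc. Lower were 2 (3.45%, against 7.35%), Adora2b and Scpep1, a serine carboxypeptidase gene with -0.13 ± 0.07 log2 (adjusted p = 0.473). Of the 7, only Tph2 was called, and next to Acot11 and Htra1 stood Pkdcc, a secreted protein kinase gene (0.30 ± 0.08 log2, adjusted p = 0.0888). Dock9 had 0.33 ± 0.12 log2 (adjusted p = 0.245) and Eva1b 0.23 ± 0.15 (0.534). Since 3 of 4 CHX controls were on lane 5 and all libraries with CHX and T3 on lane 6, lane and T3 are partly confounded here. A fit with lane as a term takes the difference between these lanes from CHX control replicate 4 alone. Its T3 effect under CHX thus sets the T3 libraries against that library only, so its calls cannot separate T3 from lane.

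**Figure D4:**
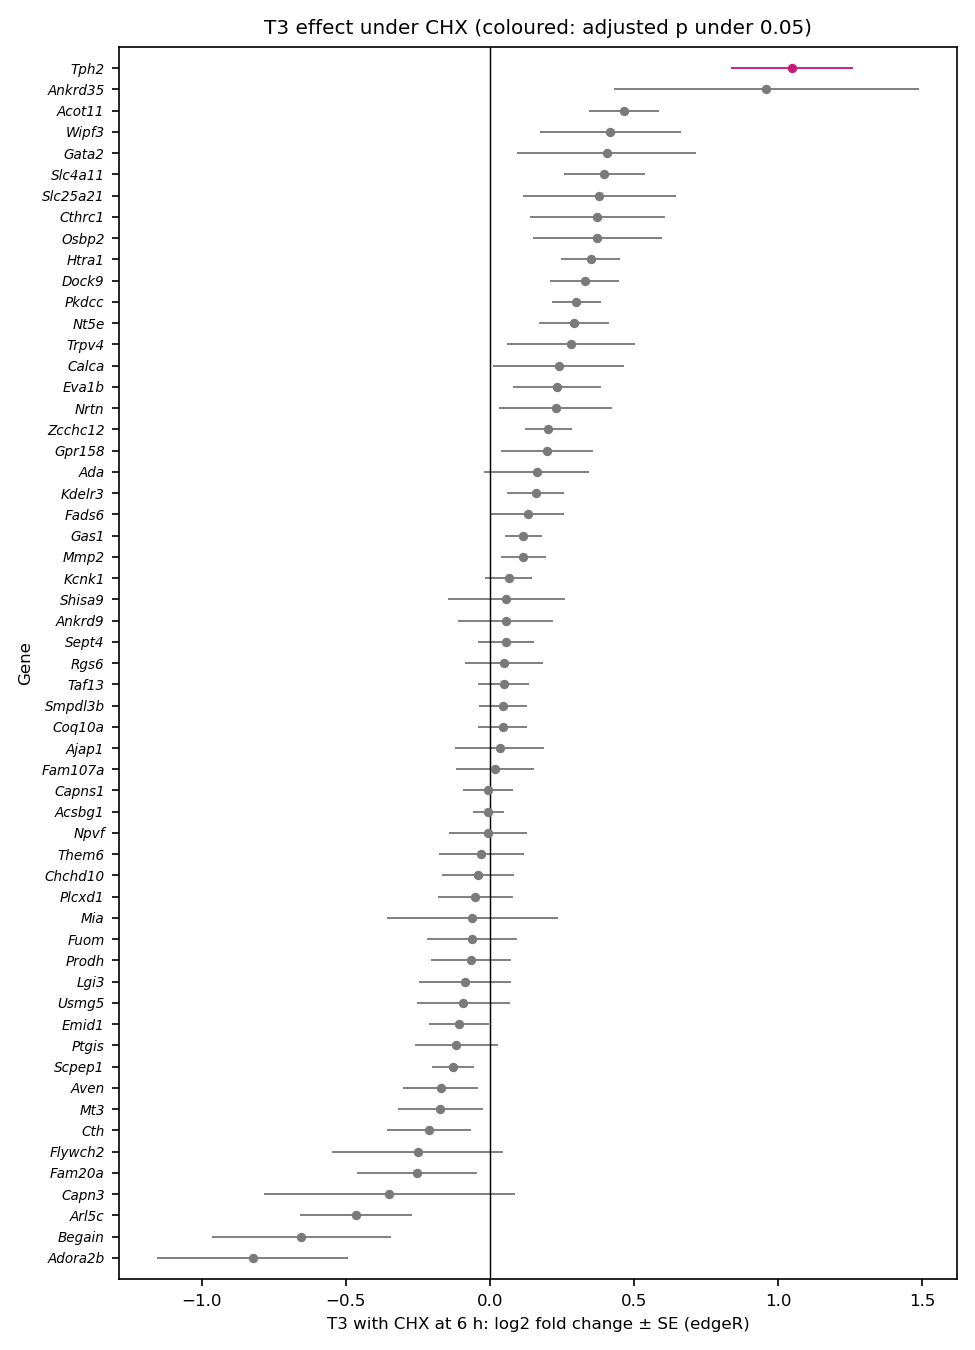
Fitted log2 fold change of T3 under CHX at 6 h (points) with its SE (bars) for 57 of the 58 genes, ordered by value, from edgeR. Tph2, in colour, is the only gene with an adjusted p under 0.05 (1.05 ± 0.21). Most other points lie within 0.5 of 0, and the genes with the widest bars, such as Ankrd35 and Capn3, had few reads.

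CHX alone changed 35 of the 58 genes, 19 higher (32.8%) and 16 lower (27.6%), beside 37.0% and 30.6% of all genes, so these shares were close to those of the transcriptome. This contrast uses the 6h Control libraries that also served to choose the genes. The largest rise was that of Arl5c, an Arf-like GTPase gene, by 1.61 ± 0.22 log2 (SE), followed by Trpv4 (1.31 ± 0.27), Osbp2 (1.12 ± 0.27), Plcxd1 (1.09 ± 0.15), Kcnk1 (0.93 ± 0.08) and Fads6 (0.88 ± 0.14). Trpv4 measured 0.657, 0.754, 0.834 and 0.795 CPM in 6 h controls and 2.24, 1.77, 2.06 and 1.98 CPM with CHX, near its level at 24 h with T3. Kcnk1 measured 109.8, 95.9, 89.8 and 111 CPM and 206, 205, 200.1 and 214 CPM, which is above all its libraries at 24 h. In edgeR the adjusted p was 0.000829 for Osbp2 and 0.000138 for Trpv4, and smaller for the other genes of this group.

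Falls with CHX alone were largest in Cthrc1 (-1.32 ± 0.22 log2), a secreted protein gene of matrix, and Ankrd9 (-1.19 ± 0.15). They were followed by Gas1 (-0.85 ± 0.06), Kdelr3 (-0.76 ± 0.10), Gata2 (-0.74 ± 0.30) and Mia (-0.73 ± 0.28). The calls of Gata2 (adjusted p = 0.0343 in edgeR) and Mia (0.0221) were lost without some single libraries, with adjusted p-values up to 0.118 and 0.0699. For Gata2 these were 6h Control CHX replicates 2 and 3 and 6h Control replicates 2, 3 and 4, and lane as a term lost the call as well. For Mia they were 6h Control CHX replicates 1 and 3. Gas1 measured 425, 411, 449.8 and 359 CPM in 6 h controls and 237, 233.8, 238 and 264 CPM with CHX. Of the secreted proteins 4 of 11 fell and 1, Npvf, rose, beside 30.6% and 37.0% of all genes. Summed astrocyte markers were lower with CHX as well (11300 to 13251 CPM against 14268 to 15110 CPM in 6 h controls). So were oligodendrocyte lineage markers (573 to 652 against 879.8 to 975 CPM) and vascular and meningeal markers (2324 to 2920.4 against 3268 to 3483 CPM). Sums overlapped in microglia markers (91.3 to 118.9 against 118.7 to 146.5 CPM, by little), neuron markers (503 to 585 against 529 to 568 CPM) and ependymal and motile cilia markers (513 to 751 against 421 to 535 CPM). By gene, edgeR called 7 of 16 microglia markers lower and 0 higher. Of 12 fitted neuron markers it called 2 lower and 1 higher, and of 13 ependymal and motile cilia markers 1 lower and 4 higher. The neuron sum was mostly Map2 (mean 310 CPM in 6 h controls), while mean Tubb3 went from 27.4 to 5.81 CPM. Of 12 fitted vascular and meningeal markers 5 were called lower and 1 higher, while mean Kdr went from 15.3 to 58.7 CPM. The part of these markers in the values of the 58 genes was not tested. Without the CHX library on lane 6, 18 rose and 15 fell.

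In the presence of T3, CHX raised 22 of the 58 and lowered 16, beside 36.3% and 31.0% of all genes. This contrast uses the 6h + T3 libraries of the choice, and all of its CHX libraries were on lane 6 and all others on lane 5, so lane and CHX cannot be told apart. In 31 genes both CHX contrasts were called with the same sign. The same count over all genes is not given here, so this number says nothing particular about the 58. Tph2 was at 0.71 ± 0.26 log2 (adjusted p = 0.0202) with CHX alone and at 1.59 ± 0.23 log2 with CHX in the presence of T3. The former call was lost with DESeq2, with lane as a term, with a replicate block, without 6h Control CHX replicate 4 and without 6h Control replicate 1 (adjusted p from 0.0536 to 0.0610). Begain, a synaptic scaffold partner, was at -0.20 ± 0.29 and -1.14 ± 0.30 log2. The difference between the contrasts was not tested for these genes.

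**Figure D5:**
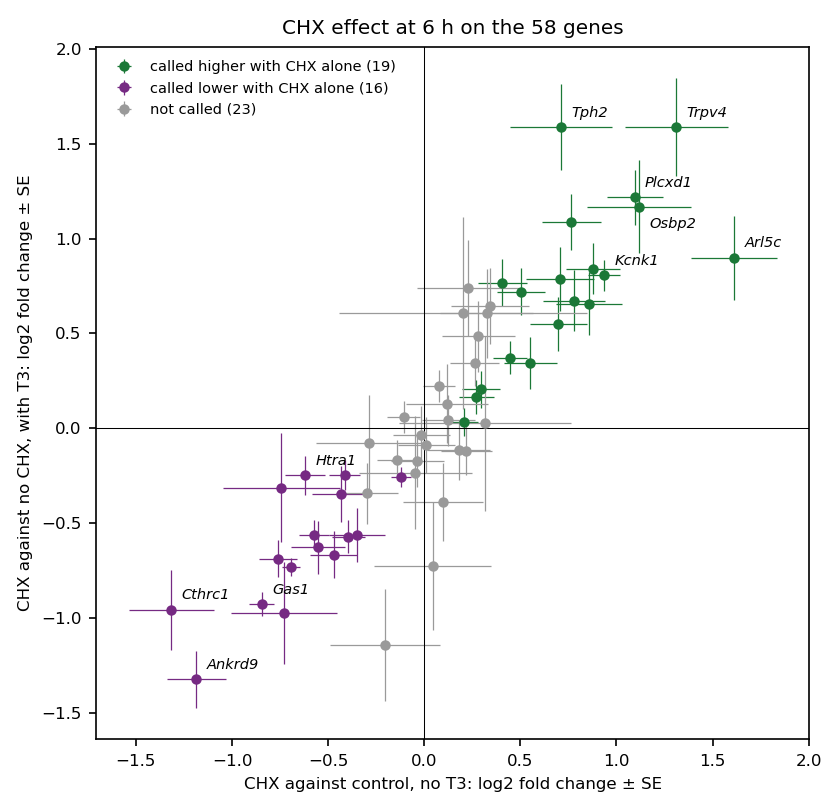
Log2 fold change with CHX at 6 h in the 58 genes, without T3 (horizontal) and with T3 (vertical), each with its SE from edgeR. Green marks the 19 genes called higher and purple the 16 called lower with CHX alone, and grey the 23 not called. Both contrasts place Trpv4, Osbp2 and Plcxd1 high and Cthrc1, Ankrd9 and Gas1 low.

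Between 6 h and 24 h the controls moved too, a description only, since time coincides with lane and the 24 h and 6 h means chose the genes. All 24h + T3 libraries were above all 8 libraries at 6 h without CHX in 54 of the 58 genes (27.1% of protein-coding genes at 2 CPM or more). The 24h Control libraries were above those 8 in 21 genes (29.6%), below in 4 (18.6%) and overlapped with them in 33. Of these 33, all 24h + T3 libraries were above the 8 in 31, such as Rgs6, Htra1, Nt5e and Ada, and overlapped with them in Pkdcc and Usmg5. Mean levels of the 6 h and 24 h controls were 6.23 and 7.25 CPM in Rgs6 and 186 and 167 CPM in Htra1. Overlap did not mean a level control: the means were 0.576 and 0.962 CPM in Tph2 and 1.61 and 3.12 CPM in Gata2. Over the same step ependymal and motile cilia markers went from 421 to 535 CPM in 6 h controls to 1083 to 1443 CPM in 24 h controls, and their part in these values was not tested. Fam107a, an actin-associated protein gene, belonged to the 21: it measured 5.44, 5.80, 5.61 and 5.71 CPM in 6 h controls, 21.4, 29.0, 20.7 and 29.0 CPM in 24 h controls, and 36.9, 41.1 and 41.8 CPM with T3. The 4 with lower controls at 24 h included Scpep1, Coq10a and Ankrd9. Scpep1 measured 642, 686, 617 and 674 CPM in 6 h controls, 533, 428, 537 and 399 CPM in 24 h controls and 767, 721 and 709 CPM with T3. In Ankrd9 and Coq10a the T3 libraries overlapped the 6 h levels. Means in 6 h controls, 24 h controls and 24h + T3 were 5.86, 4.48 and 6.83 CPM in Ankrd9 and 22.7, 19.99 and 29.9 CPM in Coq10a.

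Of 19 gene lists, 5 held members of the set: fatty acid and triglyceride synthesis and the astrocyte markers (Acsbg1 in both), mitochondrial protein import and cristae (Chchd10), astrocyte ion, water and transmitter handling (Kcnk1 among its genes) and secreted proteases and inhibitors (Mmp2 and Htra1). In the ion, water and transmitter list 10 of 26 fitted genes were called higher and 1 lower at 24 h, with a median of 0.09 log2 (all genes 0.00), and under CHX 2 were called higher. Among 30 fitted secreted proteases and inhibitors, 4 were called higher and 4 lower at 24 h (median -0.04), and 0 under CHX. Fatty acid genes had 6 higher and 1 lower of 37 at 24 h (median 0.04), and mitochondrial import genes 6 higher and 0 lower of 33 (median 0.20). None of the 28 fitted thyroid hormone-responsive genes was in the set. The set holds 58 of 12241 protein-coding genes at 2 CPM or more, so a list this short may hold none by chance. The 6 h limits also left out genes that were higher with T3 at 6 h, so this absence says nothing particular about the set. In the thyroid hormone-responsive list 17 were called higher at 24 h (median 0.49), 14 at 6 h and 9 under CHX (median 0.18).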

How the data were processed

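RNA was measured in 23 libraries in 6 groups, taken from the sample titles. Total RNA (200 ng) went into a kit that marks no strand and was read as single reads of 50 bases, per the labels' protocols. HTSeq, TopHat, Bowtie, FastQC, bcl2fastq and edgeR are named with build GRCm38 in the submitters' processing notes. Versions and counting settings were not given in the sources used here. Deposited files hold raw counts of reads per Ensembl gene, 38293 genes in each, and 5 closing lines that name no gene and stayed out of library sizes and tests. Alignments that were not unique made up 30.7 to 42.3% of all lines' counts and were not counted to genes, which lowers genes with near-identical copies.

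CPM were computed from gene lines alone. Symbols, exon lengths and coordinates came from GENCODE M21 (GRCm38), which holds 36345 of the identifiers. The limits behind the choice of genes are 2 CPM, 0.5 added to each mean, 0.5 log2 at 24 h and 0.2 at 6 h. Tests used edgeR 4.0.16 in R 4.3.3: filterByExpr with its minimum count of 10 left 16087 genes, libraries were scaled by TMM, and 1 quasi-likelihood model was fitted to all 23 libraries (17 residual degrees of freedom, biological coefficient of variation 8.57%). A call is an adjusted p under 0.05 (Benjamini-Hochberg over all genes fitted, two-sided). Standard errors are the size of the change over the square root of the F statistic. The scripts were tested on simulated data.

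The members and the gene lists were chosen with earlier results of these data known. The hand grouping by role and the adenosine genes were chosen after the members had been seen. Named were the 15 members with the largest value at 24 h, the top 3 of each symbol class, members called in a CHX comparison (the 8 and 6 first per direction), genes next to the limits and members of a list. Other members appear to complete their role group. 1 member is counted in the totals and is otherwise not reported here. Alternatives were DESeq2 1.42.0, RLE factors, no filter, lane as a term, only the groups compared, a replicate block, other limits for the choice of genes and leaving out each library. Leaving out 24h + T3 replicate 1 from the CHX comparisons was chosen after seeing the data.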

Additional observations from a re-analysis of the deposited data

Results flagged for a closer look

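Single libraries far from the other 3 of their group were looked for in 290 groups of 4 libraries, 5 for each of the 58 genes. A gap to the nearest library above 0.829 of the group's range was found in 16 groups of 13 genes, where chance alone gives about 1 in 20. The 3 libraries of 24h + T3 are too few for this rule.

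Among CHX controls, replicate 4 held 99.95 CPM of Htra1 (others 135 to 140.2), 1.16 CPM of Tph2 (others 0.942 to 0.971), 264 CPM of Gas1 (others 233.8 to 238) and 1.32 CPM of Capn3 (others 0.333 to 0.457). It is the only CHX control on lane 6, and the part of lane was not tested for single genes beyond the fit with lane as a term. Replicate 2 of that group held 0.388 CPM of Adora2b (others 0.550 to 0.571), 1.77 CPM of Osbp2 (others 1.43) and 3.44 CPM of Ankrd9 (others 2.46 to 2.54). In 6h CHX+ T3, replicate 3 was low in Capns1 (290.8 CPM, others 361 to 372), Prodh (7.27 CPM, others 8.91 to 9.09) and Acsbg1 (252 CPM, others 299 to 302).

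Without CHX, 6h Control replicate 1 was high in Prodh (6.93 CPM, others 4.50 to 4.87) and in Osbp2 (0.896 CPM, others 0.556 to 0.580), and replicate 3 was low in Flywch2 (1.56 CPM, others 2.09 to 2.17). In 6h + T3, replicate 1 was low in Prodh (3.95 CPM, others 6.10 to 6.24) and replicate 3 high in Gata2 (2.55 CPM, others 1.16 to 1.37). In 24h Control, replicate 3 was high in Gpr158 (3.26 CPM, others 2.03 to 2.22).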

How the results depend on the processing

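The number of genes chosen, 58, was 23 with 6 h limits of -0.1 and 0.1, 68 on TMM-scaled library sizes (all 58 kept), 57 with 1 added to the means (51 kept) and 43 at 5 CPM or more, and ran from 48 to 101 when single libraries were left out. It was 101 without 24h + T3 replicate 3, 87 without replicate 2 and 57 without replicate 1 (43 kept). Fewer libraries make a lack of overlap easier to reach in each of these runs, and why their counts differ was not tested. In all 15 runs without a single library, 19 genes met the rule. Members called higher with T3 under CHX, 1 as reported, numbered 3 with DESeq2 (Acot11, Htra1 and Pkdcc, with no adjusted p for Tph2). They numbered 2 without the filter, 4 with only the groups compared and 4 without 24h + T3 replicate 1. When single libraries of the groups compared were left out they numbered 1 to 2, the second being Acot11 without 6h Control CHX replicate 1. With lane as a term no count is given, since the control side of that fit rests on 6h Control CHX replicate 4 alone. Members called lower were 0 in every alternative run. All genes called higher under CHX, 187, became 286 with DESeq2, 326 with lane as a term (127 shared), 339 with only the groups compared and 343 without 24h + T3 replicate 1, and ran from 129 to 212 without single libraries of the groups compared. Those called lower, 21, became 45, 334, 68 and 74, and ran from 7 (without 6h Control CHX replicate 4) to 40. The cause was not tested. Replicate numbers carry no stated pairing and same-numbered libraries of the CHX groups correlated at only 0.02 to 0.08. Each library's description also holds a letter from A to D, whose meaning is not known here. In the CHX groups the letters run in the order of the replicate numbers, but 24h + T3 replicates 1, 2 and 3 carry A, C and D. With a replicate block on the groups compared, 607 genes were called higher and 243 lower, and 6 members were called higher (Acot11, Dock9, Htra1, Pkdcc, Slc4a11 and Tph2). In 3 of 4 numbers a library correlated best with its own. For CHX alone the counts of calls stayed within 1.5 times those reported in every alternative run. No member called in the reported or the alternative run changed sign between them. Sign changes of members called in neither run were not counted. Depth limits the genes under 1 CPM at 6 h without CHX, such as Tph2, Adora2b and Ankrd35. Over all 6 h groups, with or without CHX, these had 0 to 38 reads per library.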
